A study of Homo sapiens with 8 samples.

Results

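The genes described are 36 human genes of cholesterol and fatty acid synthesis and of their control by the sterol regulatory element-binding proteins (SREBPs), chosen by gene symbol in the platform annotation. Of these, 35 had at least 1 named probe, 52 probes in all, and 32 could be tested among 9629 genes. No probe was named for FDFT1, and the single probes of SREBF2, STARD4 and SOAT1 were not above background on any array. The 32 tested genes were each detected on all 7 arrays used, so no gene entered through 1 group alone.

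PC3 is an established human prostate carcinoma line. The cells, grown in DMEM with L-glutamine and foetal bovine serum, received either a non-specific control siRNA (4 samples) or the TRPM2-AS siRNA (4 samples) for 48 hours. TRPM2-AS is the antisense transcript of TRPM2, which encodes a calcium-permeable channel. Total RNA was hybridised to 1-colour Illumina bead arrays. Whether replicates were separate cultures is not labelled, so the p-values rest on a spread between samples that may be technical. The values below come from 4 control siRNA and 3 TRPM2-AS siRNA arrays with raw signal. TRPM2-AS siRNA replicate 3 is present in the authors' processed values only, and those values of all 8 samples stand beside the main ones where stated. Array columns are numbered apart from replicates, and TRPM2-AS siRNA array column 3 matched replicate 2.

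Cells make cholesterol from acetyl-CoA through mevalonate, farnesyl diphosphate, squalene and lanosterol, and make fatty acids from the same acetyl-CoA through malonyl-CoA. SREBPs are transcription factors held in the endoplasmic reticulum. When sterols are low, SCAP escorts them to the Golgi, where proteases release the active part, and INSIG proteins retain SCAP when sterols are high. SREBF2 is best known for the cholesterol enzymes and SREBF1 for the fatty acid enzymes, and these target genes often change together.

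Arrays of 1 group correlated at 0.983 to 0.994 and arrays of different groups at 0.906 to 0.923 across the genes tested, which are not independent replicates. The number of detected probes was 13163 to 13972 with control siRNA and 13832 to 14318 with TRPM2-AS siRNA. The epithelial markers KRT8, KRT18, KRT19, EPCAM and HOXB13 were detected on all 7 arrays, whereas KLK2 and KLK3, which mark luminal prostate cells, were detected on 0. Of the 5 detected, 4 fell with the groups apart, with log2 fold changes of -1.14 for EPCAM, -0.63 for HOXB13, -0.51 for KRT18 and -0.44 for KRT19 (limma adjusted p = 7.2e-06, 0.0117, 0.0266 and 0.00873), and KRT8 was at -0.0036 and did not pass. Of 10 fibroblast, endothelial and blood markers with a probe, 9 were detected on 0 arrays. The other was the collagen gene COL1A1, which rose by 0.75 on the log2 scale (limma adjusted p = 0.000437), and the part of these marker changes in the results was not tested. TRPM2-AS and TRPM2 had 0 named probes, so the depletion was not analysed here.

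The enzymes of lipid synthesis did not move as one block. With TRPM2-AS siRNA 15 of the 32 genes fell and 5 rose, while 12 did not pass (limma, Benjamini-Hochberg adjusted p under 0.05 over all 9629 genes). Over all genes tested 57.3% passed, 28.5% higher and 28.8% lower, and of the 32 genes 62.5% passed. The share that passed was close to the background. The median log2 fold change of the 32 genes was -0.32 against 0.00 over all genes. At least 2-fold changes numbered 8, with ACLY, NPC1, HMGCS1 and ELOVL5 higher and SCD, ME1, MSMO1 and FADS1 lower, against 9.02% of all genes higher and 9.45% lower by that much. These arrays carry bulk RNA, in which fewer cells with a transcript and less transcript per cell cannot be told apart.

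**Figure D1:**
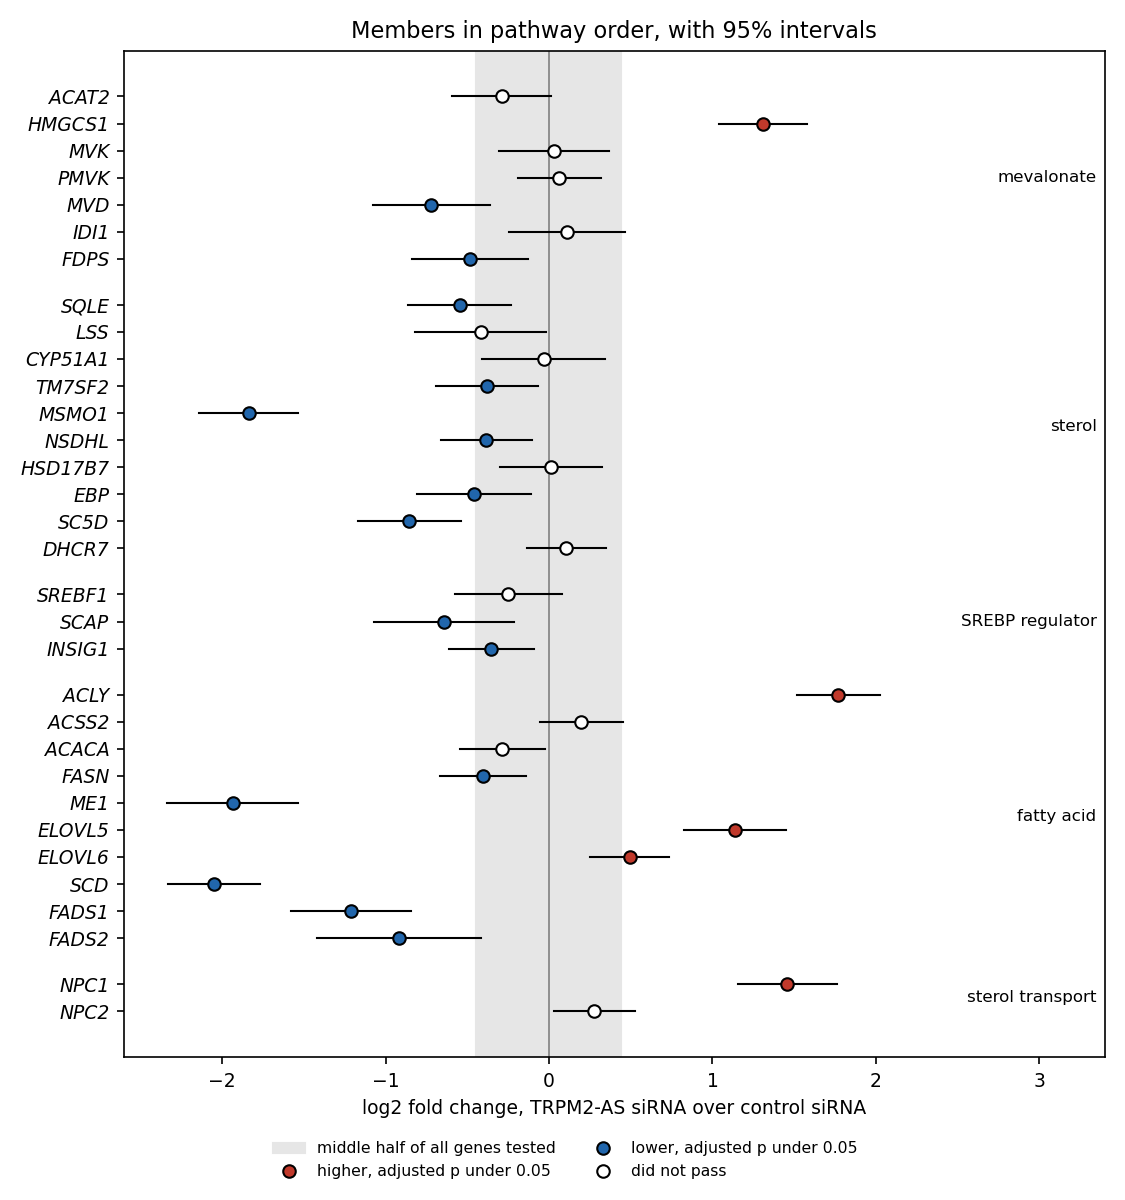
The log2 fold change (x axis, TRPM2-AS siRNA over control siRNA) of the 32 tested genes in pathway order, with 95% intervals from limma; filled points passed and open points did not, and the grey band spans the middle 50% of all 9629 genes (-0.45 to 0.44). ACLY, NPC1, HMGCS1 and ELOVL5 lie to the right of the band and SCD, ME1, MSMO1 and FADS1 to its left by at least 1 unit from 0, while the other sterol enzymes all lie less than 1 unit from 0.

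In each synthesis branch the gene with the largest rise and the gene with the largest fall are shown by their promoters, because these pairs share a pathway but moved in opposite directions. HMGCS1 and MSMO1 belong to the cholesterol branch. ACLY and SCD are grouped here with the fatty acid branch, although ACLY supplies acetyl-CoA to both branches. Each sequence covers 250 bases before to 50 after an annotated start in RefSeq, build GRCh38.p14, and capitals mark the letters CCAAT, the core bound by the factor NF-Y, on either strand (ATTGG on the other). HMGCS1 lies at chr5:43313363-43313662 on the minus strand, MSMO1 at chr4:165327419-165327718 on the plus strand, ACLY at chr17:41918902-41919201 on the minus strand and SCD at chr10:100346983-100347282 on the plus strand. HMGCS1 and ACLY each have 2 entries in the table, of which the one with the more upstream (HMGCS1) or downstream (ACLY) start is shown, and the HMGCS1 entry not shown holds 0 copies of CCAAT.
HMGCS1: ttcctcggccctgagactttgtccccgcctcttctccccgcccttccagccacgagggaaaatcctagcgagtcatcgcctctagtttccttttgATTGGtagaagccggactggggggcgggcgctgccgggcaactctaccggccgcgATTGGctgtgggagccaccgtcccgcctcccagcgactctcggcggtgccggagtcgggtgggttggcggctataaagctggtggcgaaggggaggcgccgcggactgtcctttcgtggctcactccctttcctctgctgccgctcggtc
MSMO1: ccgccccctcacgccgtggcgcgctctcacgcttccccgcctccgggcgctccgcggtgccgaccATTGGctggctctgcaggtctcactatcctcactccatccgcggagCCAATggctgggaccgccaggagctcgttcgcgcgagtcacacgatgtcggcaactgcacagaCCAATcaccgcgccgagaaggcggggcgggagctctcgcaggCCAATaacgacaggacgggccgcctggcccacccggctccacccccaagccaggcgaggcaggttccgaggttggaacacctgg
ACLY: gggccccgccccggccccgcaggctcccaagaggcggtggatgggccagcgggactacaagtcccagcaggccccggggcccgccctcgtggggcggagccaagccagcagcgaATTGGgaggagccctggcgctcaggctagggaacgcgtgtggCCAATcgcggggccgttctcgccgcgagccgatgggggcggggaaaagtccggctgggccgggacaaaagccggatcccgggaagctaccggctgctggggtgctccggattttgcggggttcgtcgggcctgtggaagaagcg
SCD: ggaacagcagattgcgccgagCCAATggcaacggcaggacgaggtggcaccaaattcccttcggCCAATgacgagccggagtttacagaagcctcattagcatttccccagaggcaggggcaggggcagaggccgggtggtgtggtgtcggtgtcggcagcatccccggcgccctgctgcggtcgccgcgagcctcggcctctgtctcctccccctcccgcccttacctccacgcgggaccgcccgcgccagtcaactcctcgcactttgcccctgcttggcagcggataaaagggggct

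The 4 printed promoters hold 2, 4, 2 and 2 copies of CCAAT, so genes that rose and genes that fell both carry it. RefSeq promoters were found for 32 of the 36 genes, 43 promoters in all. CCAAT, searched on both strands, occurred in 28 of the 43 (65.1%), against 34.6% of all 35116 promoters in the table and 35.6% of those of the genes tested. Among promoters of tested genes it stood in 11 of 15 promoters of genes that fell, 4 of 7 of genes that rose and 10 of 18 of genes that did not pass. These counts are of promoters, not of genes, and the windows of 1 gene can overlap, as in ACLY and SC5D. FASN and SQLE, which fell, had no promoter entry. Counted by gene, 24 of the 32 had CCAAT in at least 1 promoter, for which no share over all genes is given. The GC box GGGCGG, bound by Sp1, was in 38 of the 43 (88.4%), against 66.7% of promoters of the genes tested. TCACNCCAC, a form of the sterol regulatory element, was in 1 of the 43, that of SREBF2, against 1.13% of all promoters. These matches describe letters in a window of 300 bases.

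The early, mevalonate part of the pathway showed 1 clear rise beside falls further down. HMGCS1, the cytosolic synthase that commits acetoacetyl-CoA towards mevalonate, had normalised log2 intensities of 10.81, 10.51, 10.59 and 10.66 in control arrays and 11.91, 12.10 and 11.83 in TRPM2-AS siRNA arrays. All 3 TRPM2-AS siRNA arrays were above every control array, a rise of 2.48-fold from 10.64 ± 0.13 (SD, n = 4) to 11.95 ± 0.14 (SD, n = 3). The log2 fold change was 1.31 ± 0.12 SE (limma adjusted p = 5.27e-06). MVD, the decarboxylase that makes isopentenyl diphosphate, measured 8.53, 9.07, 8.75 and 8.73 in control arrays and 8.36, 7.83 and 7.96 in TRPM2-AS siRNA arrays. The groups did not overlap and MVD fell 1.65-fold (log2 fold change -0.72 ± 0.16 SE, limma adjusted p = 0.0028). FDPS, which joins isoprene units into farnesyl diphosphate, fell by 0.48 ± 0.16 SE with overlapping groups (limma adjusted p = 0.0237).

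The other 4 enzymes of the mevalonate part did not pass. The 95% interval of the log2 fold change was -0.59 to 0.01 for ACAT2, the cytosolic thiolase that feeds HMGCS1. For the kinases MVK and PMVK it was -0.31 to 0.37 and -0.19 to 0.32, and for the isomerase IDI1 -0.24 to 0.47. A 2-fold change in either direction lies outside all 4 intervals. Of the 7 mevalonate genes 1 rose and 2 fell, against 28.5% of all genes higher and 28.8% lower. FDPS no longer passed without control array column 3 or 4 or without TRPM2-AS siRNA array column 1 or 4, with 2 of the 7 genes then left as calls in each case.

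Past squalene, 6 of 10 tested sterol enzymes fell and 0 rose, against 28.8% of all genes lower and 28.5% higher. MSMO1, the monooxygenase of the later demethylation of the sterol ring, after the step of CYP51A1, had values of 11.60, 11.30, 11.48 and 11.75 in control arrays against 9.51, 9.76 and 9.82. The gap between the groups was far wider than the spread within either, and MSMO1 fell 3.57-fold (log2 fold change -1.84 ± 0.14 SE, limma adjusted p = 1.06e-06). A second detected MSMO1 probe differed by -1.98, and another was not above background on any array. SC5D, the desaturase that acts near the end of the pathway, measured 9.34, 9.25, 9.18 and 9.49 in control arrays and 8.66, 8.56 and 8.16 in TRPM2-AS siRNA arrays. SC5D fell 1.81-fold with the groups apart (log2 fold change -0.85 ± 0.14 SE, limma adjusted p = 0.000395).

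SQLE, the epoxidase that oxidises squalene, fell 1.46-fold (11.64 ± 0.13, SD, n = 4, to 11.09 ± 0.27, SD, n = 3; limma adjusted p = 0.00697), and its other probe differed by -0.66. Smaller falls belonged to the isomerase EBP (-0.46), NSDHL (-0.38) and the reductase TM7SF2 (-0.38). NSDHL and HSD17B7 act in the same demethylation as MSMO1, and HSD17B7 stood at 0.01 (95% interval -0.30 to 0.33). The demethylation enzymes thus ranged from a fall of 3.57-fold to a change that was not detectable. CYP51A1, the lanosterol demethylase, stood at -0.03 (-0.41 to 0.34) and DHCR7, the last reductase of the pathway, at 0.11 (-0.13 to 0.35), with a second DHCR7 probe at -0.09. LSS, the cyclase that forms lanosterol, was at -0.42 and did not pass (-0.82 to -0.02, limma adjusted p = 0.0694). Its other detected probe differed by -0.63 (limma adjusted p = 0.0223 over probes), and LSS passed with the mean of both, without control array column 4 and without TRPM2-AS siRNA array column 1 (limma adjusted p = 0.00601, 0.00963 and 0.0339). The calls of EBP, NSDHL and TM7SF2 depended on single arrays. Without control array column 2 or 4, or TRPM2-AS siRNA array column 3 or 4, 4 sterol enzymes passed in place of 6. Without control array column 4, EBP, NSDHL and TM7SF2 all failed, and LSS was among the 4. When arrays were scaled to 1 median, 3 passed.

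**Figure D2:**
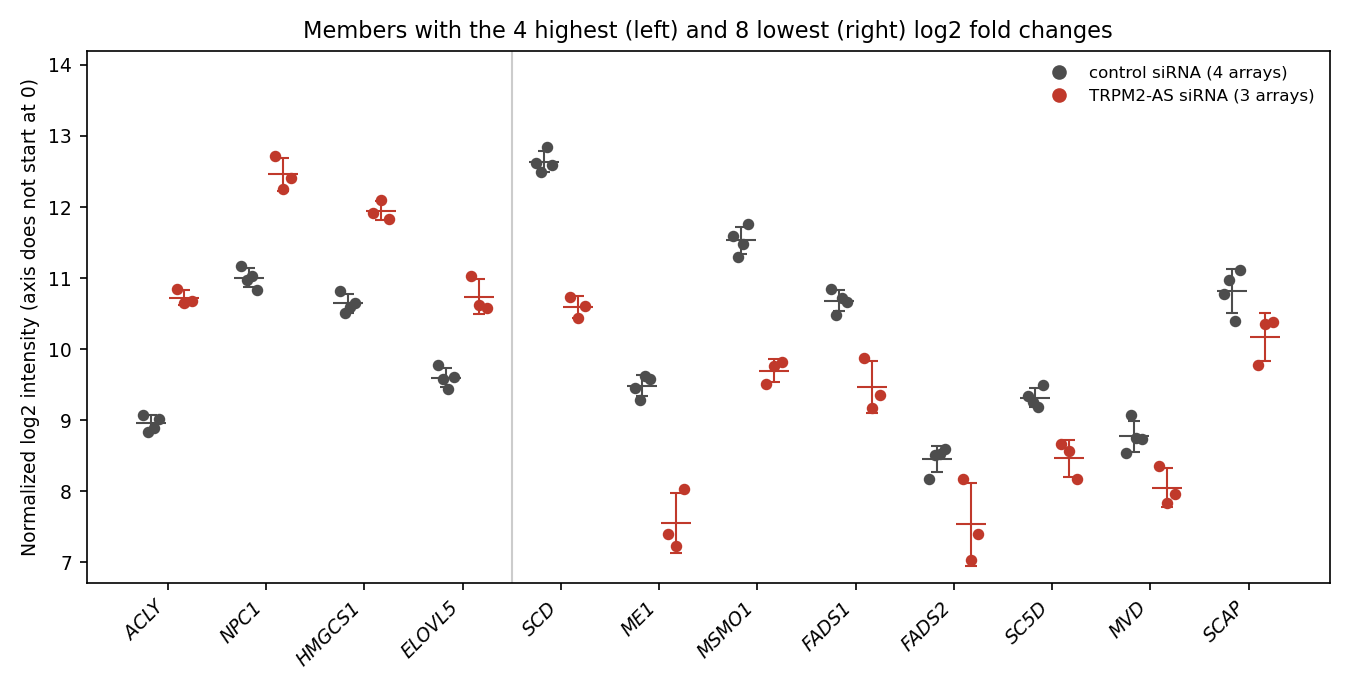
Normalised log2 intensity (y axis) on each array for the genes with the 4 highest and 8 lowest log2 fold changes, in grey for control siRNA and red for TRPM2-AS siRNA; horizontal bars are means and error bars are SD. The groups are apart in all 12 genes, by the smallest margin in FADS2, where 1 TRPM2-AS siRNA array reads 8.17 and the lowest control array 8.18.

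The fatty acid branch held the widest changes in both directions, with 5 of 10 genes lower and 3 higher, against 28.8% and 28.5% of all genes. ACLY, the citrate lyase that supplies cytosolic acetyl-CoA to both branches, had values of 9.08, 8.83, 8.88 and 9.02 in control arrays and 10.84, 10.65 and 10.68 in TRPM2-AS siRNA arrays. Every TRPM2-AS siRNA array exceeded every control array by more than 1.5 log2 units, and ACLY rose 3.41-fold (log2 fold change 1.77 ± 0.12 SE, limma adjusted p = 4.15e-07). Its other probe differed by 1.5. ACSS2, which makes acetyl-CoA from acetate, was at 0.20 (-0.06 to 0.45) and did not pass.

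The core synthesis enzymes moved less. FASN, the fatty acid synthase, fell 1.32-fold (13.86 ± 0.15, SD, n = 4, to 13.46 ± 0.08, SD, n = 3; limma adjusted p = 0.0133). ACACA, the carboxylase that makes malonyl-CoA, was at -0.29 (-0.54 to -0.03) with the groups apart and did not pass (limma adjusted p = 0.0573). ME1, the malic enzyme that supplies NADPH, measured 9.45, 9.28, 9.62 and 9.58 in control arrays and 7.39, 7.22 and 8.03 in TRPM2-AS siRNA arrays. The TRPM2-AS siRNA arrays spread more widely yet all lay over 1 log2 unit below the controls. ME1 fell 3.83-fold (log2 fold change -1.94 ± 0.18 SE, limma adjusted p = 5.45e-06).

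The 3 fatty acid desaturases fell and the 2 elongases rose. SCD, which puts the first double bond into saturated fatty acids, had values of 12.62, 12.50, 12.85 and 12.59 in control arrays and 10.74, 10.43 and 10.61 in TRPM2-AS siRNA arrays. Of the 32 genes SCD had the largest fall, 4.13-fold, with the groups well apart (log2 fold change -2.05 ± 0.13 SE, limma adjusted p = 2.9e-07). FADS1 and FADS2, the front-end desaturases of polyunsaturated fatty acids, lie side by side on chromosome 11 (FADS1 61799627 to 61817003, FADS2 61816203 to 61867354 in GRCh38.p14), run in opposite directions and share 801 bases at their starts. FADS1 measured 10.84, 10.49, 10.72 and 10.67 in control arrays and 9.87, 9.18 and 9.35 in TRPM2-AS siRNA arrays, a fall of 2.32-fold (log2 fold change -1.21 ± 0.17 SE, limma adjusted p = 9.48e-05).

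FADS2 values were 8.18, 8.52, 8.52 and 8.59 against 8.17, 7.03 and 7.40. In both FADS genes the same TRPM2-AS siRNA array read highest, and in FADS2 it nearly met the lowest control. FADS2 fell 1.89-fold (log2 fold change -0.92 ± 0.23 SE, limma adjusted p = 0.00513). ELOVL5, an elongase of polyunsaturated fatty acids, had values of 9.78, 9.57, 9.44 and 9.60 in control arrays and 11.03, 10.62 and 10.57 in TRPM2-AS siRNA arrays. ELOVL5 rose 2.20-fold with no overlap (log2 fold change 1.14 ± 0.14 SE, limma adjusted p = 4.40e-05). ELOVL6, an elongase of saturated and monounsaturated fatty acids, rose 1.41-fold (limma adjusted p = 0.00265), while a second, dimmer ELOVL6 probe differed by 0.05 and the mean of both did not pass.

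Among the regulators, SCAP fell and the SREBF1 transcript did not pass. SCAP, the sterol-sensing escort, measured 10.78, 10.97, 10.40 and 11.11 in control arrays and 9.77, 10.35 and 10.38 in TRPM2-AS siRNA arrays. The highest TRPM2-AS siRNA array lay just under the lowest control array, and SCAP fell 1.56-fold (log2 fold change -0.64 ± 0.19 SE, limma adjusted p = 0.015). INSIG1, the retention protein that is itself an SREBP target, measured 10.37, 10.37, 10.37 and 10.50 in control arrays and 9.87, 10.07 and 10.21 in TRPM2-AS siRNA arrays. The groups were apart and INSIG1 fell 1.28-fold (log2 fold change -0.35 ± 0.12 SE, limma adjusted p = 0.0241). A second, dimmer INSIG1 probe differed by -0.15, and with the mean of both INSIG1 did not pass.

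SREBF1 values were 8.43, 8.67, 8.31 and 8.14 in control arrays and 7.92, 8.22 and 8.28 in TRPM2-AS siRNA arrays. The groups overlapped (log2 fold change -0.25, 95% interval -0.58 to 0.08), and a second SREBF1 probe differed by 0.12. Cleavage of the SREBP proteins is not measured by these arrays. Both regulator calls rested on few arrays: without TRPM2-AS siRNA array column 1 neither passed, and without control array column 4 or TRPM2-AS siRNA array column 3 INSIG1 did not. SREBF2 was not well above background on any array.

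Of the sterol transport genes, NPC1, the membrane protein that exports cholesterol from lysosomes, had values of 11.17, 10.98, 11.03 and 10.84 in control arrays and 12.71, 12.26 and 12.41 in TRPM2-AS siRNA arrays. All TRPM2-AS siRNA arrays lay over 1 log2 unit above the controls, and NPC1 rose 2.75-fold (log2 fold change 1.46 ± 0.14 SE, limma adjusted p = 5.73e-06). NPC2, the soluble partner that hands cholesterol to NPC1, was at 0.28 (0.03 to 0.53) with the groups apart and did not pass (limma adjusted p = 0.056). NPC2 did pass without control array column 2 or TRPM2-AS siRNA array column 1. STARD4, a cytosolic sterol carrier, and SOAT1, which esterifies cholesterol for storage, were not well above background in either group.

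Across the 32 genes the groups did not overlap in 14 genes that were lower and 7 that were higher, against 28.8% and 28.9% of all genes (57.8% in either direction). Several probes of a gene could be compared in 10 of them, and all probes of a gene differed the same way in 8. DHCR7 and SREBF1 were the exceptions, with differences of at most 0.25 in size.

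TRPM2-AS siRNA replicate 3 offered a sample that the main comparison did not use, although it was normalised together with the others by the authors and is set against the same control samples. In the authors' processed values it lay beyond all 4 control samples, in the direction of the call, for 17 of the 20 genes that passed (85%). Over all 5515 genes that passed, 94.6% did so. Lying outside the control range, in either direction, was also common among genes that did not pass. It held for 9 of the 12 such genes here and for 2145 of 4114 over all genes tested. For SCD the processed log2 value of that replicate was 10.70 against 12.55 to 12.89 in control samples, and for MSMO1 9.85 against 11.39 to 11.82. ACLY stood at 10.97 against 9.16 to 9.36 and NPC1 at 12.39 against 10.94 to 11.26. The 3 exceptions were SCAP (10.60 against 10.53 to 11.20), EBP and NSDHL, which lay within the control range.

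With all 8 samples of the processed values, in which 61.9% of all genes passed (31.2% higher and 30.8% lower), 24 of the 32 genes passed, 18 lower and 6 higher. All 20 calls were among them with the same direction, and LSS, ACAT2, ACACA and NPC2 were added. The processed log2 fold changes were -1.98 for SCD, -1.57 for ME1, -1.72 for MSMO1, 1.61 for ACLY and 1.23 for HMGCS1.

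**Figure D3:**
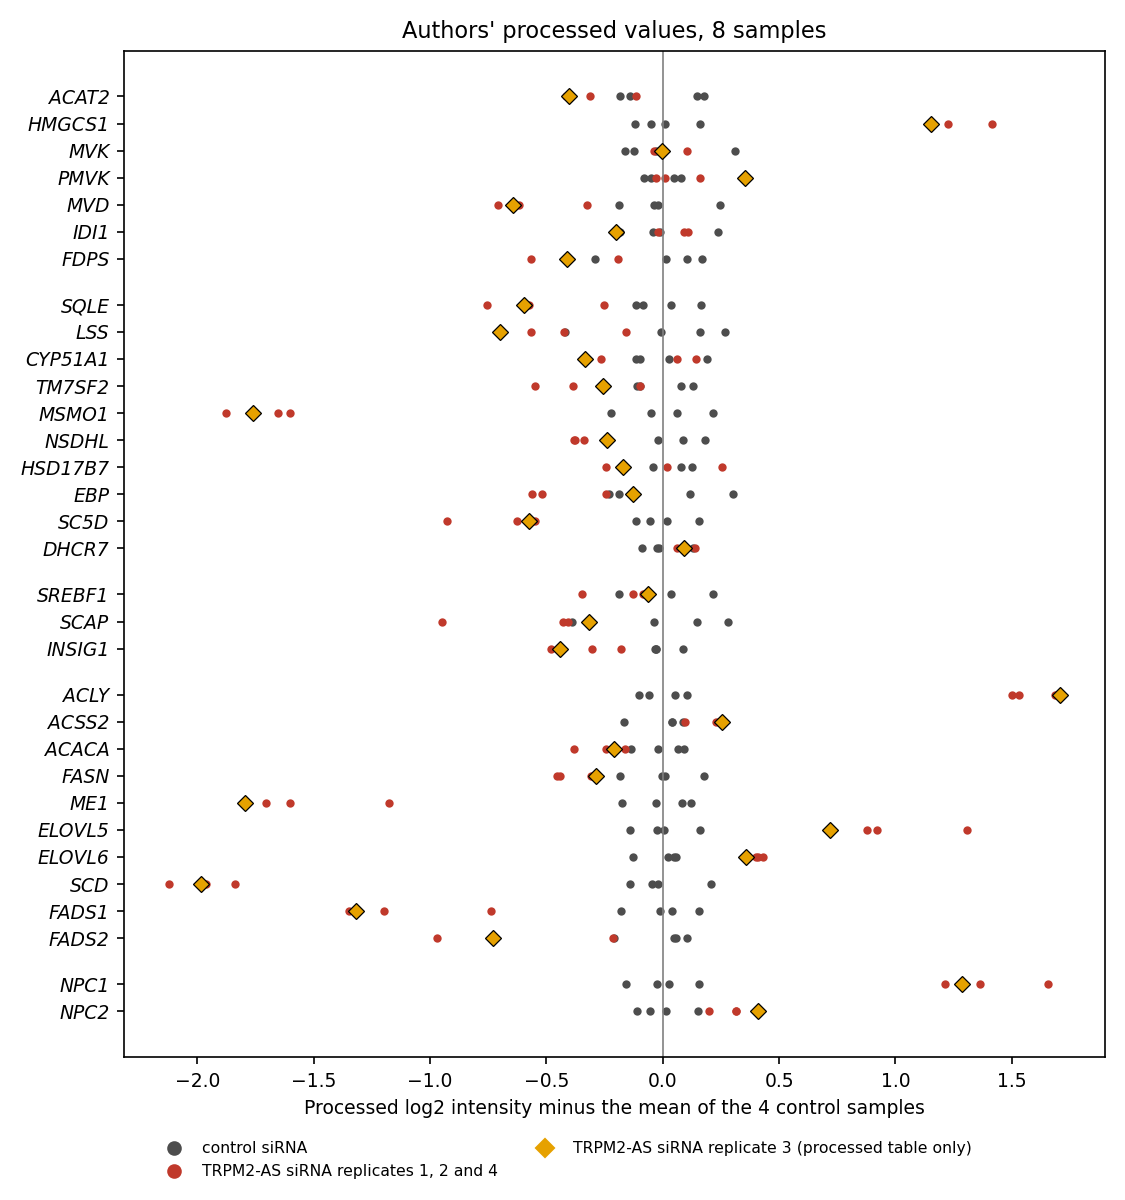
The authors' processed log2 intensity of each of the 8 samples minus the mean of the 4 control samples (x axis) for the 32 tested genes in pathway order; grey points are control siRNA, red points TRPM2-AS siRNA replicates 1, 2 and 4, and yellow diamonds TRPM2-AS siRNA replicate 3. The diamonds of HMGCS1, ACLY, ELOVL5 and NPC1 lie right of all grey points and those of MSMO1, ME1, SCD and FADS1 left of them, while those of SCAP, EBP and NSDHL fall among the grey points.

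Lipid genes outside the 36 were read from 6 lists of 53 genes. Of 43 tested, 2 (ERLIN1 and ELOVL2) were detected with control siRNA alone. They entered only through the group in which they were high, so their fitted calls as lower were favoured by the filter and are not counted here. Of the other 41, detected in both groups, 15 rose and 12 fell (65.9% against 57.3% of all genes), with a median log2 fold change of 0.17. The counts per list below stand beside 28.5% of all genes higher and 28.8% lower. In the SREBP processing and sterol sensing list 3 of 5 such genes fell and 1 rose. The Golgi proteases that cut SREBPs both fell, MBTPS2 2.06-fold (limma adjusted p = 0.000101) and MBTPS1 1.47-fold (limma adjusted p = 0.000796). TMEM97, a sterol-responsive membrane protein, fell 1.73-fold. ERLIN1, of the membrane complex that takes part in degrading sterol-regulated proteins, was below detection on all 3 TRPM2-AS siRNA arrays, at least 1.5-fold lower by its bound. Its relative ERLIN2 rose 1.38-fold.

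Cholesterol efflux transporters rose. ABCG1 rose 5.07-fold (limma adjusted p = 1.76e-06) and ABCA1 2.08-fold (limma adjusted p = 5.9e-05), both known targets of the oxysterol receptors LXR. The ABCG1 control mean was 6.04 ± 0.38 (SD, n = 4), near the lowest detected signal (5.94 on TRPM2-AS siRNA arrays), so the size of its rise is uncertain. Other LXR targets went the opposite way, as MYLIP, a ubiquitin ligase for lipoprotein receptors, fell 1.47-fold and the phospholipid acyltransferase LPCAT3 1.55-fold. The list had 2 of 5 genes higher and 2 lower.

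Non-sterol users of farnesyl diphosphate were split, 3 of 8 higher and 1 lower. FNTB, the beta subunit of protein farnesyltransferase, fell 5.31-fold (limma adjusted p = 1.71e-07). PDSS1, which builds the ubiquinone tail, rose 1.86-fold, DHDDS, which serves dolichol synthesis, 1.51-fold and GGPS1, the geranylgeranyl diphosphate synthase, 1.32-fold. In the sterol handling list 3 of 5 rose and 1 fell. LBR, whose sterol reductase activity overlaps that of TM7SF2, rose 2.27-fold and the lipoprotein receptor SCARB1 1.65-fold. LIPA, the acid lipase that frees cholesterol in lysosomes upstream of NPC1, fell 2.17-fold (limma adjusted p = 5.02e-06). STARD3, a sterol carrier of late endosomes, rose by 0.59 at the limit (limma adjusted p = 0.0499).

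Of 12 further fatty acid synthesis and activation genes detected in both groups, 4 rose and 4 fell. ELOVL4, an elongase of very long chains, rose 5.77-fold (limma adjusted p = 8.97e-08), and GPAM, the acyltransferase that starts glycerolipid synthesis, 1.88-fold. LPIN1, a phosphatidate phosphatase, fell 1.89-fold. ELOVL2, another elongase, was below detection on all 3 TRPM2-AS siRNA arrays, at least 1.90-fold lower by its bound. In fatty acid oxidation 2 of 6 rose and 1 fell. HADHA, the alpha subunit of the mitochondrial trifunctional protein, fell 2.82-fold and the dehydrogenase ACADM rose 2.23-fold, the carnitine acyltransferase CPT1A rose 1.49-fold, and CPT2 was at -0.19 and did not pass.

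**Figure D4:**
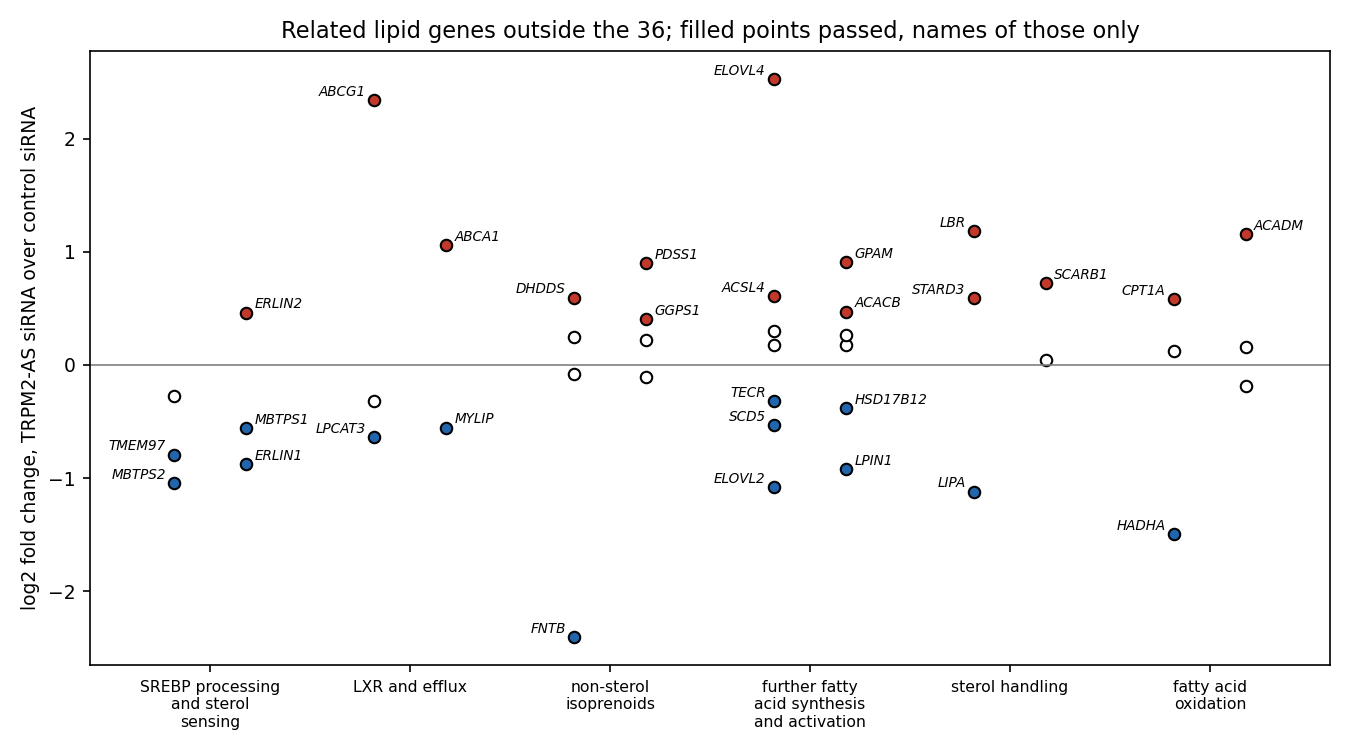
The fitted log2 fold change (y axis) of the 43 tested lipid genes outside the 36, by list. Filled points passed in the fit, red for higher and blue for lower, and open points did not pass. ABCG1, ELOVL4 and FNTB lie beyond 2 log2 units from 0. ERLIN1 and ELOVL2 are drawn filled at fitted values, but were not above background on TRPM2-AS siRNA arrays. Their calls were favoured by the filter and are not counted in the text.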

How the data were processed

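Total RNA of PC3 cells was measured on 1-colour Illumina bead arrays. The deposited non-normalized table holds probe intensity with a detection p-value for every signal (per the file headers), and BeadStudio is named in the submitters' processing notes. The authors' processed intensity of all 8 samples, deposited on a linear scale, has 1 distribution in every column and so is quantile normalized, and limma is named in the same notes. No version is given in the sources used here. Columns of the first table name a group only. Each of the 7 used ranked the 48798 shared probes exactly as 1 processed sample of its own group did (Spearman rho of 1, the next sample at most 0.834), and no used column matched TRPM2-AS siRNA replicate 3. Control array columns 1, 2, 3 and 4 matched control siRNA replicates 1, 3, 2 and 4. TRPM2-AS siRNA array columns 1, 3 and 4 matched TRPM2-AS siRNA replicates 1, 2 and 4. Another 1 column of per-sample values could not be tied to a sample and was not used.

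Signals were background corrected with limma 3.58.1 in R 4.3.3 (normal-exponential model, offset 16), quantile normalized and log2 transformed. A probe was kept where its detection p was under 0.01 on at least 3 arrays, and the probe with the highest mean stood for its gene. Of the shared probes, 28094 had 1 gene name, 13 several and 20691 none, and 0 names needed an update. The test was limma's (lmFit, eBayes), two-sided, with Benjamini-Hochberg adjustment over 9629 genes. The fit was tested on simulated data. Precision is limited by the number of arrays (median SE 0.14 on the log2 scale). A bound ("at least") divides the bright group's mean by that of the dim group, in which each array counts with the probe's signal or the lowest detected signal, whichever is larger. Alternatives changed the background step, normalization, filter, probe rule, variance model, array weights, table, replicate block and test, and left out each array. All 36 genes are named. Values per array are given for the 4 highest and 8 lowest fold changes and the regulators. Of each related list, up to 4 genes with the smallest p and exceptions in direction are named. The genes and lists were chosen with earlier results of these data known.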

Additional observations from a re-analysis of the deposited data

Results flagged for a closer look

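For the 32 tested genes, the 4 control arrays and the 4 processed TRPM2-AS siRNA samples were searched for 1 sample far from the others, 64 groups in all. The 2 that were found are no more than a chance rate of about 1 in 20 groups gives. INSIG1 read 10.5 in control array column 4 and 10.37 in the other control arrays, a gap of 0.955 of the whole range, above the limit for 4 samples. INSIG1 no longer passed without that array, nor without TRPM2-AS siRNA array column 1 or 3. ACSS2 read 12.41 in TRPM2-AS siRNA replicate 1 of the authors' processed values and 12.55 to 12.57 in the others (0.853 of the range).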

How the results depend on the processing

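Each gene was computed under 21 alternatives. Of the 20 genes that passed, 11 did so under all of them (ACLY, NPC1, HMGCS1, ELOVL5, SCD, ME1, MSMO1, FADS1, FADS2, SC5D and MVD), 2 more failed only against a fold of 1.2 (SQLE and FASN), and 0 turned direction. The matching share over all 5515 genes that passed is not given, so these counts cannot be read as a trait of the genes described. Of the 12 genes that did not pass, 5 passed in at least 1 alternative. Signal over background limits SREBF2, STARD4 and SOAT1, which had no detected probe. The cause of the changes below was not tested unless stated.

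Against a fold of 1.2, a stricter test by construction, 11 of the 32 genes passed, 7 of them lower, with 0 regulators, 2 sterol enzymes and 3597 of all genes (1759 higher, 1838 lower). Genes changed at least 2-fold numbered 1779 in all, 979 with no background correction, 964 in the processed values and 964 there with the replicate block. With 1 median per array 3 sterol enzymes and 1 regulator passed; 1 regulator also passed with the mean of probes or array weights. NPC2 made 2 transport genes pass with no background correction, offset 50, detection on all arrays, the mean of probes, the trended variance, array weights and the processed values, with and without the block. The median log2 fold change of the genes was -0.29 with no filter, with the mean of probes and with array weights, against -0.32.

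Leaving out each array in turn gave 16 to 20 calls among the genes (5 to 6 higher, 11 to 15 lower) and 5036 to 5365 of all genes. The median was -0.36 to -0.27, with 8 to 9 at least 2-fold changes. By part, 2 to 3 mevalonate, 4 to 6 sterol, 8 to 9 fatty acid, 0 to 2 regulator and 1 to 2 transport genes passed. Of the related genes 25 to 28 passed, against 29 with all arrays, counted without setting ERLIN1 and ELOVL2 aside. Signs turned only in genes that did not pass. Over arrays left out, CYP51A1 ranged from -0.16 to 0.16, HSD17B7 from -0.12 to 0.15, MVK from -0.041 to 0.17 and PMVK from -0.0088 to 0.11. In the processed values, with and without the block, HSD17B7 stood at -0.034 and IDI1 at -0.0059, and with 1 median per array MVK stood at -0.0018.

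Groups share replicate numbers, and same-numbered samples deviated together only in part (correlations 0.38, -0.07, 0.09 and 0.22). Whether the numbers pair the samples cannot be told from these values. The replicate block, fitted on the processed values, gave 25 of the 32 genes and 6273 of all genes, against 24 and 5964 without it.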
